A study of Arabidopsis thaliana with 2 samples.

Results

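Enzymes that break down lysine and the branched-chain amino acids leucine, isoleucine and valine were followed in rosette leaves of *Arabidopsis thaliana* plants that over-express NST1, a transcription factor of the NAC family that turns on secondary wall formation. The genes are AT4G33150, MCCA, MCCB, IVD, ETFQO, BCAT-2, BCDH BETA1, DIN4 and BCE2, chosen by locus from probes that stand for exactly 1 gene. A named probe stood for 5 of these 9 genes, with 6 probes among the 9335 probes with 1 gene and the 22575 probes in all. The aminotransferase BCAT-2 and the keto acid dehydrogenase subunits BCDH BETA1, DIN4 and BCE2 had no named probe and were not analysed here, so the measured genes cover lysine breakdown and the later part of leucine breakdown only. The genes were chosen with their values on these arrays known, AT4G33150 as one of the highest, so their own values are given as a description with no test.

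Total RNA came from plants aged 2 weeks, kept under a cycle of 16 h light with 8 h darkness and otherwise untreated, per the labels. The over-expressors were 2 independent first-generation (T1) transformants, no.36 and no.44, which carry NST1 under the 35S promoter. This promoter is active in most plant cells, so expression was likely not limited to cells that normally form secondary walls. Each was hybridised on 1 array in Cy5 against wild type in Cy3, with the same dyes on both arrays, so dye and genotype cannot be told apart. Wild type served as 1 control sample, as far as the labels tell, and its own spread does not enter the values. The values are the deposited log ratios, likely log10 of over-expressor over wild type. The sources used here state neither the base nor the centring nor the direction. Every fold therefore holds only if the base is 10, and a positive value is only likely to mean higher in the over-expressor. NST1 had no named probe to check the direction or the labels, and a ratio holds no level, so the leaf identity of the RNA could not be checked against marker levels either.

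Plants take lysine apart in the cytosol with a bifunctional enzyme, lysine-ketoglutarate reductase/saccharopine dehydrogenase (LKR/SDH, AT4G33150), which joins lysine to 2-oxoglutarate and then splits the product. Leucine, isoleucine and valine lose their amino group and are oxidised in mitochondria, where isovaleryl-CoA dehydrogenase (IVD) and methylcrotonyl-CoA carboxylase (MCCA and MCCB) act on leucine. Electrons from IVD pass through the electron-transfer flavoprotein and its ubiquinone oxidoreductase (ETFQO) to the respiratory chain, a route known from *Arabidopsis* leaves starved of sugar in darkness.

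LKR/SDH stood far above the other measured breakdown genes. Its log ratio was 0.871 in plant no.36 and 1.105 in plant no.44, with a mean of 0.99 ± 0.17 (SD, n = 2 plants), or 9.73-fold higher in the over-expressors if the base is 10. It held rank 9 from the highest mean among the 9335 probes with 1 gene. The plants lay 0.23 apart, with plant no.44 higher, and 97.9% of the probes with 1 gene had a smaller SD between plants. Its lower value, in plant no.36, was still above every value of the other measured genes of the group.

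The next highest was IVD (AT3G45300), the mitochondrial enzyme that oxidises isovaleryl-CoA from leucine. Its log ratio was 0.166 in plant no.36 and 0.231 in plant no.44, with a mean of 0.20 ± 0.05 (SD, n = 2 plants), or 1.58-fold if the base is 10. Of the probes with 1 gene, 91.4% had a lower mean. ETFQO (AT2G43400), which hands electrons from the flavoprotein to ubiquinone, had 0.103 in plant no.36 and 0.082 in plant no.44, a mean of 0.09 ± 0.01 or 1.24-fold. Both genes lay above 0 in both plants.

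Averaged over probes, both subunits of methylcrotonyl-CoA carboxylase lay near 0. MCCA (AT1G03090), the biotin-carrying subunit, had 2 probes. One gave 0.129 in plant no.36 and 0.029 in plant no.44, with a mean of 0.08, close to the 0.09 of ETFQO. The other gave 0.010 and -0.055, so that the second differed in sign between the plants. The mean over both probes was 0.03 ± 0.06 (SD, n = 2 plants). MCCB (AT4G34030), the carboxyltransferase subunit, had -0.034 in plant no.36 and -0.041 in plant no.44, a mean of -0.04 ± 0.005. The 2 subunits of this carboxylase therefore did not share the position of IVD, which comes just before them in leucine breakdown.

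**Figure D1:**
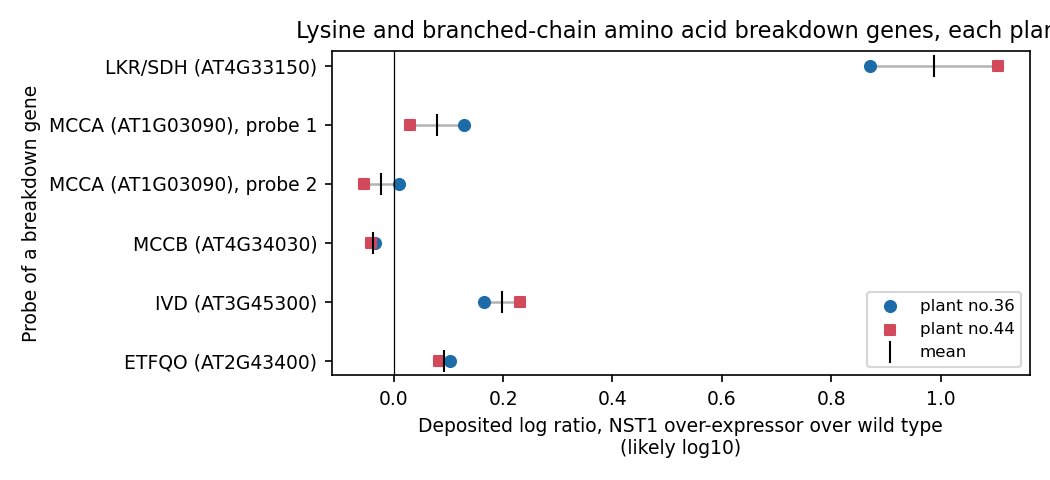
Deposited log ratio (likely log10, over-expressor over wild type) on the x axis for each of the 6 probes of the breakdown genes on the y axis; circles are plant no.36, squares plant no.44 and black ticks their mean. LKR/SDH lies at 0.871 and 1.105, and IVD and ETFQO lie above 0 in both plants. The first MCCA probe also lies above 0 in both, at 0.129 and 0.029, and the second MCCA probe and the MCCB probe lie close to 0.

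Among the 5 measured genes, 3 lay above 0 in both plants, 1 lay below 0 in both, and MCCA, averaged over its probes, was of opposite sign. Over all probes with 1 gene, 42.2% lay above 0 in both plants and 41.0% below. The median over the 5 genes was 0.09, at 0.10 in plant no.36 and 0.08 in plant no.44, against 0.00 over all probes with 1 gene. Without LKR/SDH the median of the other 4 was 0.06, so the group as a whole is described by 1 very high gene and 4 genes within 0.20 of 0. LKR/SDH alone reached at least 2-fold in both plants, which 2.71% of the probes with 1 gene did in the higher direction, and since the genes were chosen on these values nothing is read from that share.

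Both plants gave the 5 genes the same order, from LKR/SDH through IVD, ETFQO and MCCA to MCCB. Which plant was higher differed by gene. LKR/SDH and IVD were higher in plant no.44, and MCCA, MCCB and ETFQO were higher in plant no.36, by 0.08, 0.007 and 0.02 on the log ratio scale. With 1 array a plant this difference has no test. The SD between plants ranged from 0.005 for MCCB to 0.17 for LKR/SDH, and its median over the 5 genes was 0.05, against 0.03 over all probes with 1 gene.

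The 3 genes nearest to LKR/SDH over both log ratios, by Euclidean distance over 2 plants, were AT1G36060, an AP2/ERF transcription factor, at 0.911 in plant no.36 and 1.057 in plant no.44, AT5G47330 at 0.948 and 0.978, and AT4G39670 at 0.771 and 0.984. Their distances were 0.06, 0.15 and 0.16. With 2 arrays this likeness is a likeness of size and no more.

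The other steps of branched-chain breakdown were examined in a list of 17 further genes, of which 10 were measured. By limma's moderated test against 0, with Benjamini-Hochberg adjustment over all 22575 probes and a threshold of 0.05, 1 rose, 4 fell and 5 did not pass. The same test called 9.99% of the probes with 1 gene as higher and 12.4% as lower. The list's median was 0.00, the same as that of all probes with 1 gene. Its p-values, like all p-values here, rest on the spread between the 2 plants, moderated by a prior estimated from all 22575 probes. That prior had 1.37 degrees of freedom against 1 residual degree of freedom of the probe itself, and the spread of wild type does not enter. Loci without a symbol in RefSeq are described from general knowledge of the locus.

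The decarboxylase that commits the branched-chain keto acids to oxidation had its 2 alpha subunit genes on opposite sides. AT1G21400 rose, with 0.272 in plant no.36 and 0.341 in plant no.44, a mean of 0.31 ± 0.05 or 2.03-fold (limma, adjusted p = 0.0345). AT5G09300 fell, with -0.414 in plant no.36 and -0.423 in plant no.44, a mean of -0.42 ± 0.006, or 2.62-fold lower (limma, adjusted p = 0.0196). The values of the 2 genes did not overlap on either array, but the difference between the 2 genes was not tested.

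Of the aminotransferases, AT1G50110, a cytosolic branched-chain aminotransferase, fell to a mean of -0.27 ± 0.005, with -0.271 in plant no.36 and -0.264 in plant no.44 (limma, adjusted p = 0.0269). ATBCAT-5, a plastid form, did not pass, at -0.022 in plant no.36 and -0.080 in plant no.44. BCAT4 (AT3G19710), which serves methionine chain elongation for glucosinolates rather than breakdown, had the highest value of the list, 0.776 in plant no.36 and 0.409 in plant no.44, but its mean of 0.59 ± 0.26 did not pass (limma, adjusted p = 0.0804). Apart from BCAT4, for which the plants lay far apart, the measured aminotransferases of this list thus lay below 0 in both plants, and only AT1G50110 passed.

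Further down the leucine branch, AT4G16800, a methylglutaconyl-CoA hydratase, fell to -0.16 ± 0.03 (limma, adjusted p = 0.0452), while the hydroxymethylglutaryl-CoA lyase AT2G26800 lay at 0.11 ± 0.02 and did not pass (limma, adjusted p = 0.0552). In the valine branch AT4G31810, a hydrolase of the hydroxyisobutyryl-CoA type, fell to -0.33 ± 0.05, with -0.364 in plant no.36 and -0.300 in plant no.44 (limma, adjusted p = 0.0317). ALDH6B2, the methylmalonate semialdehyde dehydrogenase, lay at 0.15 ± 0.07 and AT4G20930, a hydroxyisobutyrate dehydrogenase, at 0.05 ± 0.09, and neither passed. No direction was shared along either branch.

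The electron-transfer flavoprotein, which passes electrons from IVD to ETFQO, was higher. All 3 genes of this list were measured, and 2 rose. ETFBETA rose to 0.20 ± 0.007, with 0.207 in plant no.36 and 0.197 in plant no.44 (limma, adjusted p = 0.0305). ETFALPHA rose to 0.13 ± 0.02, with 0.150 in plant no.36 and 0.116 in plant no.44 (limma, adjusted p = 0.0495). D2HGDH, the hydroxyglutarate dehydrogenase that feeds the same flavoprotein, had 0.093 in plant no.36 and 0.160 in plant no.44 and did not pass (limma, adjusted p = 0.0805). The median of the list was 0.13, and all 3 genes lay above 0 in both plants. Over all probes with 1 gene, 9.99% were called higher and 42.2% lay above 0 in both plants. The members IVD and ETFQO also lay above 0 in both plants, but they were chosen with their values known, so nothing is read from that.

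Of 4 listed genes of lysine breakdown and of pipecolate, a defence compound made from lysine, 2 were measured. AT5G52810, the reductase that forms pipecolate, rose to 0.28 ± 0.02, with 0.289 in plant no.36 and 0.267 in plant no.44 (limma, adjusted p = 0.0276). AT1G07040, an enzyme of the last part of lysine breakdown, had 0.276 in plant no.36 and 0.413 in plant no.44, and its mean of 0.34 ± 0.10 did not pass (limma, adjusted p = 0.0506). Both lay above 0 in both plants, as did 42.2% of the probes with 1 gene, and well under LKR/SDH.

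The 3 breakdown lists together held 15 measured genes. Among them were BCAT4 and the pipecolate gene AT5G52810, whose roles given above are not breakdown. Of the 15 genes, 4 rose, AT5G52810 among them, another 4 fell, and 7 did not pass. Over all probes with 1 gene, 9.99% were called higher and 12.4% lower. With each array centred on its median, 7 rose, BCAT4 among them (limma, adjusted p = 0.0485), and 4 fell. Uncentred fits also moved the split, with 7 that rose without probes at 0 on both arrays and 8 with only probes with 1 gene in the fit, and 4 that fell in each. BCAT4 was among those that rose in each of these fits too. None of these calls was left at an adjusted p of 0.01 or without limma's prior on the variance.

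The measured genes that make the same amino acids lay mostly below 0. Of 13 listed genes of lysine synthesis 5 were measured, and all 5 fell, against 12.4% of all probes with 1 gene. Their median was -0.24, at -0.22 in plant no.36 and -0.27 in plant no.44. AT2G44040, a dihydrodipicolinate reductase, was the lowest, with -0.434 in plant no.36 and -0.433 in plant no.44, a mean of -0.43 ± 0.0007, or 2.71-fold lower (limma, adjusted p = 0.0191). Its homologue AT3G59890 fell to -0.24 ± 0.05 (limma, adjusted p = 0.0395). The diaminopimelate decarboxylases AT3G14390 and AT5G11880, which release lysine at the end of the pathway, fell to -0.38 ± 0.05 and -0.24 ± 0.04 (limma, adjusted p = 0.0311 and 0.0359). The epimerase AT3G53580 fell to -0.22 ± 0.009 (limma, adjusted p = 0.0301).

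Of 15 listed genes of branched-chain synthesis 3 were measured, and 2 of them fell, against 12.4% of all probes with 1 gene. The dihydroxyacid dehydratase AT3G23940 had -0.431 in plant no.36 and -0.425 in plant no.44, a mean of -0.43 ± 0.004 or 2.68-fold lower (limma, adjusted p = 0.0194). The ketol-acid reductoisomerase AT3G58610 had -0.367 in plant no.36 and -0.316 in plant no.44, a mean of -0.34 ± 0.04 (limma, adjusted p = 0.0293). AT2G31810, a regulatory subunit of acetohydroxyacid synthase, had -0.044 in plant no.36 and 0.009 in plant no.44 and did not pass. The 8 measured synthesis genes had a median of -0.29, and 7 lay below 0 in both plants, as did 41.0% of the probes with 1 gene. The lower values of synthesis genes and the high value of LKR/SDH were seen on the same 2 arrays, and the difference between the lists was not tested. The lists were also written with earlier results of these data known. Synthesis calls numbered 7 under every centring tried, and 4 genes lay at least 2-fold lower in both plants, as did 2.44% of the probes with 1 gene, but 0 were called at an adjusted p of 0.01 or without the prior.

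**Figure D2:**
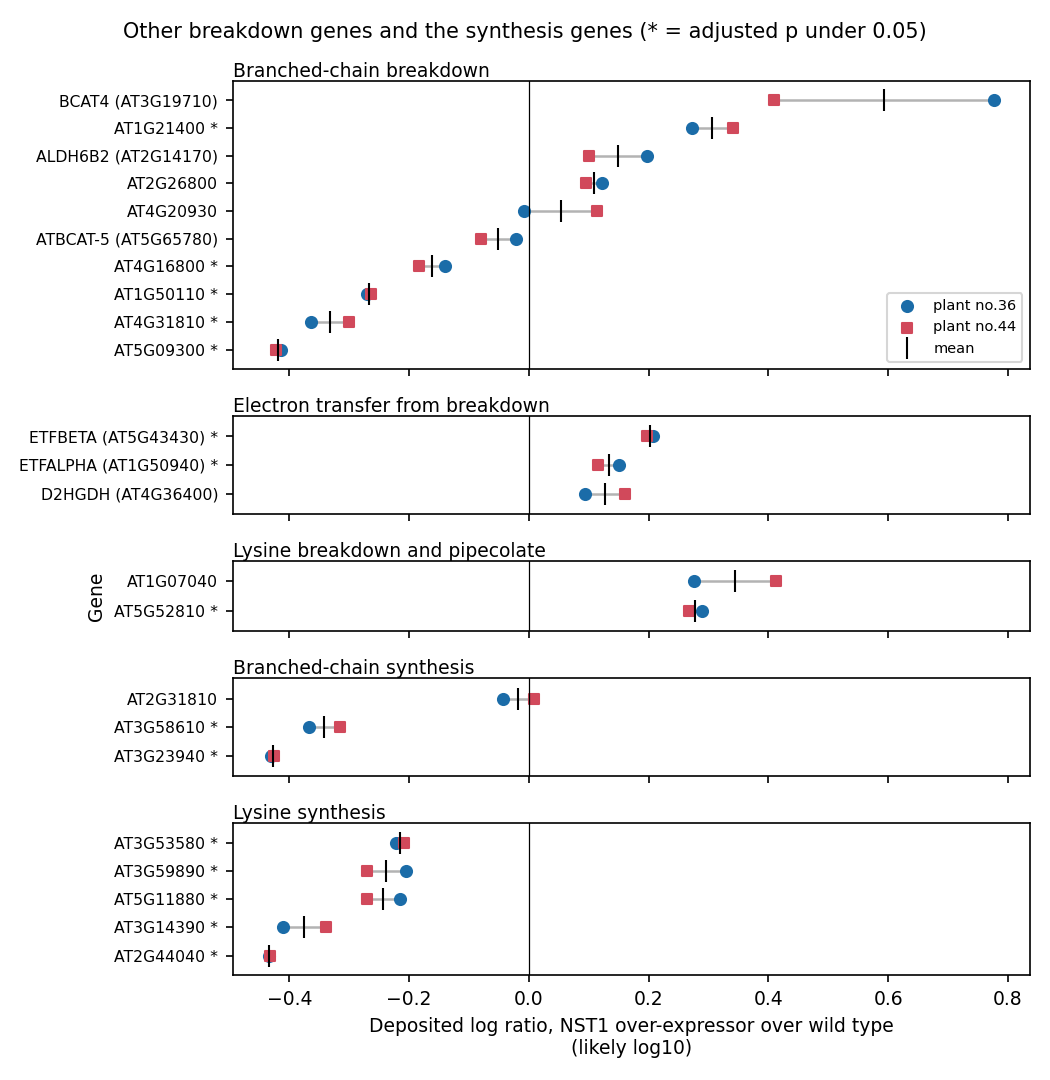
Deposited log ratio (likely log10, over-expressor over wild type) on the x axis for each measured gene of 5 lists on the y axis; circles are plant no.36, squares plant no.44, black ticks their mean, and an asterisk marks limma's adjusted p under 0.05. The 5 lysine synthesis genes lie below 0 in both plants, and the genes of electron transfer, lysine breakdown and pipecolate lie above 0. The genes of the branched-chain breakdown list, BCAT4 included, lie on both sides.

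Few breakdown genes of other amino acids could be followed. Of 30 listed genes 7 were measured, with 1 that rose, 0 that fell and a median of 0.00. Over all probes with 1 gene, 9.99% were called higher and 12.4% lower. AT5G38710, a proline dehydrogenase, rose to 0.24 ± 0.02, with 0.220 in plant no.36 and 0.253 in plant no.44 (limma, adjusted p = 0.0313). Ornithine aminotransferase DELTA-OAT had the highest mean, 0.30 ± 0.11, with 0.224 in plant no.36 and 0.373 in plant no.44, and did not pass (limma, adjusted p = 0.0644). None of the 8 measured subunits of the other mitochondrial 2-oxo acid dehydrogenases passed, out of 10 listed, and their median was -0.003. AT5G65750, a 2-oxoglutarate dehydrogenase subunit, lay at 0.11 ± 0.01 (limma, adjusted p = 0.0525), and AT5G55070, another subunit of that complex, at -0.10 ± 0.06.

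Darkness and sugar starvation are known to raise several of these breakdown genes, but the 13 listed markers of that state had 1 measured gene. It was AT3G15450, which rose to 0.22 ± 0.001, with 0.223 in plant no.36 and 0.225 in plant no.44 (limma, adjusted p = 0.0287). Of 14 listed SnRK1 kinase subunits and bZIP factors, which act in the response to low energy, 5 were measured and 0 passed, with a median of 0.02. AKINBETA1, a SnRK1 subunit, lay at 0.13 ± 0.07 and AT4G16360, another subunit, at -0.05 ± 0.04. Of 11 peroxisomal beta-oxidation genes only AIM1 was measured, at 0.15 ± 0.04, and it did not pass (limma, adjusted p = 0.0593). Of 11 genes of alternative respiration 3 were measured, with a median of 0.14. NDB2 rose to 0.14 ± 0.007 (limma, adjusted p = 0.0376), NDB1 fell to -0.20 ± 0.01 (limma, adjusted p = 0.0313), and NDB3, at 0.15 ± 0.04, did not pass. The same test called 9.99% of the probes with 1 gene higher and 12.4% lower. With so few measured genes in these lists, nothing is read from their counts.

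Markers of other cell types and states were read on the same arrays, where 9.99% of the probes with 1 gene were called higher and 12.4% lower. Both measured xylem vessel markers, of 10 listed, rose, AT4G04460 to 0.45 ± 0.07 and SCPL48 to 0.45 ± 0.09 (limma, adjusted p = 0.0326 and 0.0388), although ratios hold no level that could be summed over the list. The single measured senescence marker of 8 listed, WRKY53, rose to 0.24 ± 0.06 (limma, adjusted p = 0.0466). Of 15 photosynthesis markers 3 were measured. LHCB4.3 fell to -0.23 ± 0.006 (limma, adjusted p = 0.0286), while RCA and LHCB4.1 did not pass and held an identical pair of values, -0.220 and -0.082, that 73 probes shared. The median of this list, -0.15, is the mean of that shared pair, so it is not read as a marker result. None of the 3 measured root markers of 5 listed passed, with a median of -0.07, PYK10 at -0.08 ± 0.02 and EXPA18 at -0.07 ± 0.002. The part of vessel cells or of leaf age in the values of the breakdown genes was not tested. In whole leaves, more cells of a type and more RNA per cell cannot be told apart.

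**Figure D3:**
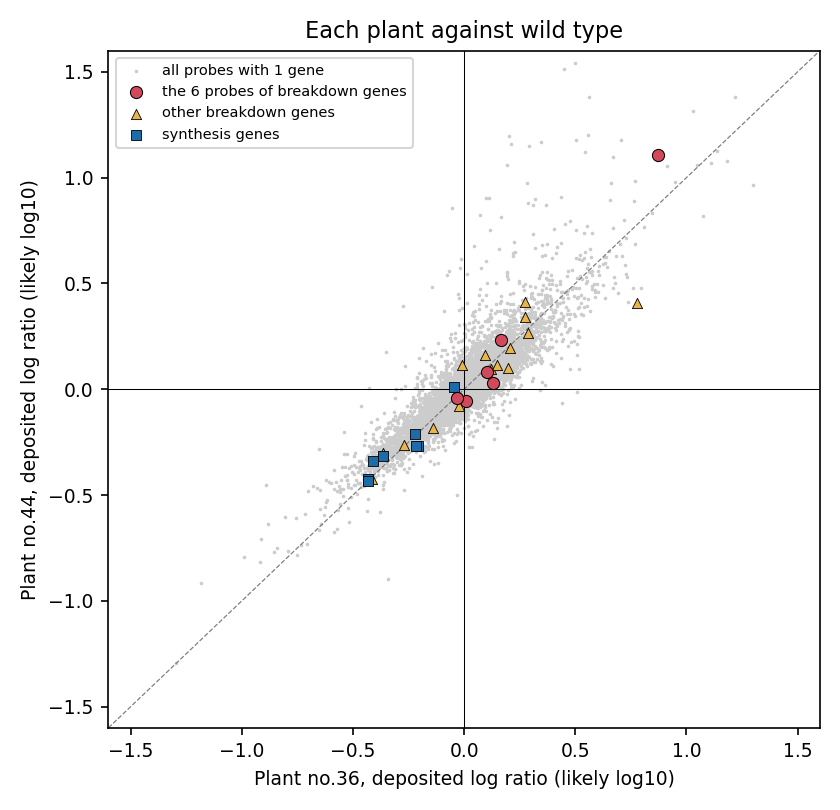
Log ratio of plant no.44 (y axis) against that of plant no.36 (x axis), both likely log10 of over-expressor over wild type. The 9335 probes with 1 gene are grey and the 6 probes of breakdown genes are circles. Triangles are the genes of the other breakdown lists, including BCAT4 and AT5G52810, and squares are synthesis genes. The dashed line marks equal values. LKR/SDH lies at the upper right at 0.871 and 1.105, and 7 of the 8 synthesis genes lie in the lower left.

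The 9 genes have 18 protein-coding neighbours on their chromosomes by the TAIR10.1 RefSeq table, of which 6 had a probe. Of these, 2 rose and 1 fell, against 9.99% called higher and 12.4% called lower over all probes with 1 gene. With 6 neighbours nothing is read from these counts. AT4G33160, the neighbour of LKR/SDH, lay at -0.06 ± 0.02 and did not pass (limma, adjusted p = 0.123), so the high value was not shared with it. AT3G45310, beside IVD, rose to 0.23 ± 0.03, close to the value of IVD (limma, adjusted p = 0.0356). NET1D, an actin-binding protein gene beside MCCA, rose to 0.16 ± 0.01 (limma, adjusted p = 0.0351). FPA, an RNA-binding regulator of flowering beside ETFQO, lay at -0.02 ± 0.007, and AT1G10090, beside BCAT-2, at 0.10 ± 0.05, and neither passed. AT3G06840, beside BCE2, fell to -0.46 ± 0.02 (limma, adjusted p = 0.0215).

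How firmly a probe stands for its gene limits these values. Of 77 genes with exactly 2 named probes, 46 had the same sign of the mean in both, and the values correlated across genes, which are not independent replicates, with Pearson r = 0.235 and Spearman rho = 0.368. The median difference between the 2 probes of a gene was 0.05, more than the size of the mean of MCCA or MCCB. LKR/SDH, IVD, MCCB and ETFQO each rest on 1 probe, and so does every measured gene of the 15 lists, called or not.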

How the data were processed

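RNA of 2 over-expressor plants was measured against wild type on 1 two-colour array each. The deposited values, read as log10 ratios from their limits of -2 and 2, were made by the authors from the 2 dyes named per the labels, by steps not given in the sources used here. All 22575 probes had values. Probes were named by the platform annotation, and symbols were updated by gene ID from RefSeq (TAIR10.1), which matched 9317 of 9335 probes with 1 gene; 40 probes had several genes and 13200 were unnamed here. The fit used limma 3.58.1 (R 4.3.3) per probe, intercept only, two-sided against 0, with 1 residual degree of freedom, a prior of 1.37 and Benjamini-Hochberg adjustment over all probes. Array medians were -0.002 and -0.004, and values were not centred again. Probes of a gene were averaged, and the gene was called if all its probes passed with 1 sign. Precision is limited by the number of arrays, and without intensities the signal above background is not known. The plants correlated at r = 0.872 across the 9335 probes.

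The genes and the 15 lists were chosen with earlier results of these data known. Named were all measured genes of the group, from each list up to 4 called genes with the largest absolute means (2 where none passed), the 3 nearest to LKR/SDH and the chromosomal neighbours. Other listed genes described by their place in the pathway were named after their values were seen. Tested on simulated data of 22575 probes, 82.9% of 4800 probes changed 2-fold were recovered with 143 false calls. Of 200 changed probes 0% were recovered, at 2-fold and at 4-fold alike. The 4800 lie close to the calls made here, 2001 higher and 2795 lower, but the true number of changed probes is not known. Which of these recoveries applies to these arrays is therefore not known either. The simulated noise held no dye or array effect, so the recovery does not show that the calls made here are right. Promoter motifs were not analysed here.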

Additional observations from a re-analysis of the deposited data

How the results depend on the processing

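The median of the 5 breakdown genes, 0.0925, was 0.0955 with arrays centred and 0.0956 centred and scaled, between 0.082 and 0.103 with 1 plant left out, 0.0857 over probes, and 0.0604 without LKR/SDH; the last 2 settings were chosen after the data were seen. Read with a base of 2, its 1.24-fold becomes 1.07-fold. Calls depended on the setting. Counts that rose are given for all probes, for probes with 1 gene and for the breakdown lists, against 2001, 933 and 4. They were 3021, 1431 and 7 with centring, 3187, 1517 and 7 with scaling, and 3012, 1419 and 7 without probes at 0 on both arrays. With only probes with 1 gene in the fit, 1609 such probes and 8 genes of the breakdown lists rose. At least 2-fold on both arrays, 582, 253 and 1 were higher, and 928, 228 and 1 lower, with 4 lower synthesis genes against 7 that fell. An adjusted p of 0.01 and limma's fit without a prior called 0 probes and 0 list genes, while 9718 probes with the prior and 4329 without it had an unadjusted p under 0.05. The robust prior and a 1.5-fold rule moved no count by over 1.5 times. Of 57 measured list genes, 23 no longer passed at 0.01 or without the prior, 7 or 8 more passed with centring, scaling or fewer probes, and 0 changed sign while called. What caused the shifts was not tested. No paired analysis was possible because all arrays form 1 group. Counts without 1 plant were not run, since no residual degrees of freedom are left, and promoter motifs were not run, since no promoter sequence was used here.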
